A study of Mus musculus with 6 samples.

Results

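The respiratory chain and the ATP synthase form the oxidative phosphorylation system of the mitochondrial inner membrane. Here 128 of the 21719 genes in the deposited table were taken as its members by their symbols alone: 115 nuclear protein-coding genes whose names begin with Nduf, Sdh, Uqcr, Uqcc, Cox or Atp5, and the 13 protein-coding genes of the mitochondrial genome. By complex, 49 nuclear members belong to complex I, 8 to complex II, 14 to complex III, 27 to complex IV and 17 to complex V. The name rule takes subunits and those assembly factors that carry the same stem, so factors with other names, such as Acad9, are described apart at the end.

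Complex I takes electrons from NADH and complex II takes them from succinate, and both pass them to ubiquinone. Complex III hands them on to cytochrome c and complex IV to oxygen, while complexes I, III and IV move protons that drive ATP synthesis by complex V. Every complex except II joins subunits from the mitochondrial genome with subunits from the nucleus, and assembly factors help to build each complex without staying in it. Most of what is known of assembly factors comes from work in human cells and yeast. Podocytes are the epithelial cells that wrap the glomerular capillaries of the kidney, and mitochondrial function in these cells is studied in diabetic kidney disease.

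The samples were 6 RNA sequencing libraries of MPC5, a conditionally immortalised mouse podocyte line, of which 3 are labelled Setdb2KO (knockout of Setdb2, which belongs to the SETDB family of histone methyltransferases) and 3 Setdb2WT (wild type). All 6 were kept in high glucose, at a concentration that the labels do not give, and no low-glucose sample was analysed here. The comparison asks which transcripts differ with the genotype label under that condition. Neither the edited part of Setdb2 nor whether each group is 1 clone is given in the sources used here, and the 3 libraries of a group are not said to be separate cultures. The p-values given here therefore weigh differences against a spread between libraries that may be technical.

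Setdb2 itself was not lower under the knockout label. It had 17, 15 and 25 reads in the libraries labelled Setdb2KO and 12, 10 and 9 reads in those labelled Setdb2WT (log2 fold change 0.73, SE 0.38, adjusted p = 0.088), so the groups are named by their labels and every direction is that of the Setdb2KO label. Libraries held 36461449 to 37129174 reads. Replicate 2 labelled Setdb2KO stood further from its group than the others: the chi-square of the counts, divided by its degrees of freedom, was 8.84 and 15.7 against replicates 1 and 3 and 4.38 between those, while pairs labelled Setdb2WT gave 2.55 to 2.71. Of 9 podocyte markers 7 were analysed: 2 were higher, among them the slit-diaphragm partner Cd2ap, while Actn4, Synpo, Podxl and Npnt were lower, and Wt1 had 0 to 2 reads in every library. The summed level of the podocyte markers was 1147 to 1249 CPM under the Setdb2KO label, against 1321 to 1327 CPM under the Setdb2WT label. Most of it came from Actn4 (mean 524 against 716 CPM) and Cd2ap (633 against 415 CPM), so the sum hides larger falls. Podxl had a mean of 4.96 CPM under the Setdb2KO label, against 50.5 CPM under the Setdb2WT label. Npnt had 4.90 CPM under the Setdb2KO label, against 93.1 CPM under the Setdb2WT label.

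Of the 123 members tested, 61 were lower and 32 were higher in the libraries labelled Setdb2KO, and 30 missed an adjusted p of 0.05 in edgeR's quasi-likelihood test. Over all 13509 genes tested, 83.8% passed, 42.3% lower and 41.5% higher, so a passed test is the usual state of a gene in this comparison. The members' changes were small beside that background. Their median absolute log2 fold change was 0.298, against 0.657 over all genes tested. Of the 123 members, 3 passed with at least a 2-fold change (Cox6a2 higher, Uqcc2 and Atp5e lower) where 32.6% of all genes did. Cox6a2 was tested at all only through its reads in the libraries labelled Setdb2KO. Tested against a limit of 1.2-fold, 34 of the 123 members were lower and 11 of the 123 higher. Both shares were smaller than those over all genes tested, 34% lower (4591 of 13509) and 33.3% higher (4494 of 13509). The 3 libraries of each label did not overlap for 89 of the 123 members. That share was also smaller than the 84.6% over all genes (11434 of 13509). Members named below for the largest changes of their class were chosen among those without overlap, so their lack of overlap adds no support.

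The balance between lower and higher members depended on how libraries were scaled. The median log2 fold change of the members tested was -0.14 with TMM factors, beside 0.0045 over all genes tested. Total-count scaling moved the median of all genes by 0.15, with 48.5% of genes higher and 35.8% lower, and under it 48 members were higher, 39 lower and 36 did not pass. The members' median was then 0.012, against 0.16 over all genes tested, so it lay below that of all genes under both scalings. Levels are given as CPM, read counts scaled to a common library size with TMM factors, and a level in a bulk culture cannot tell fewer cells expressing a gene from less RNA per cell. Without replicate 2 labelled Setdb2KO, 63 members were lower and 36 higher.

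**Figure D1:**
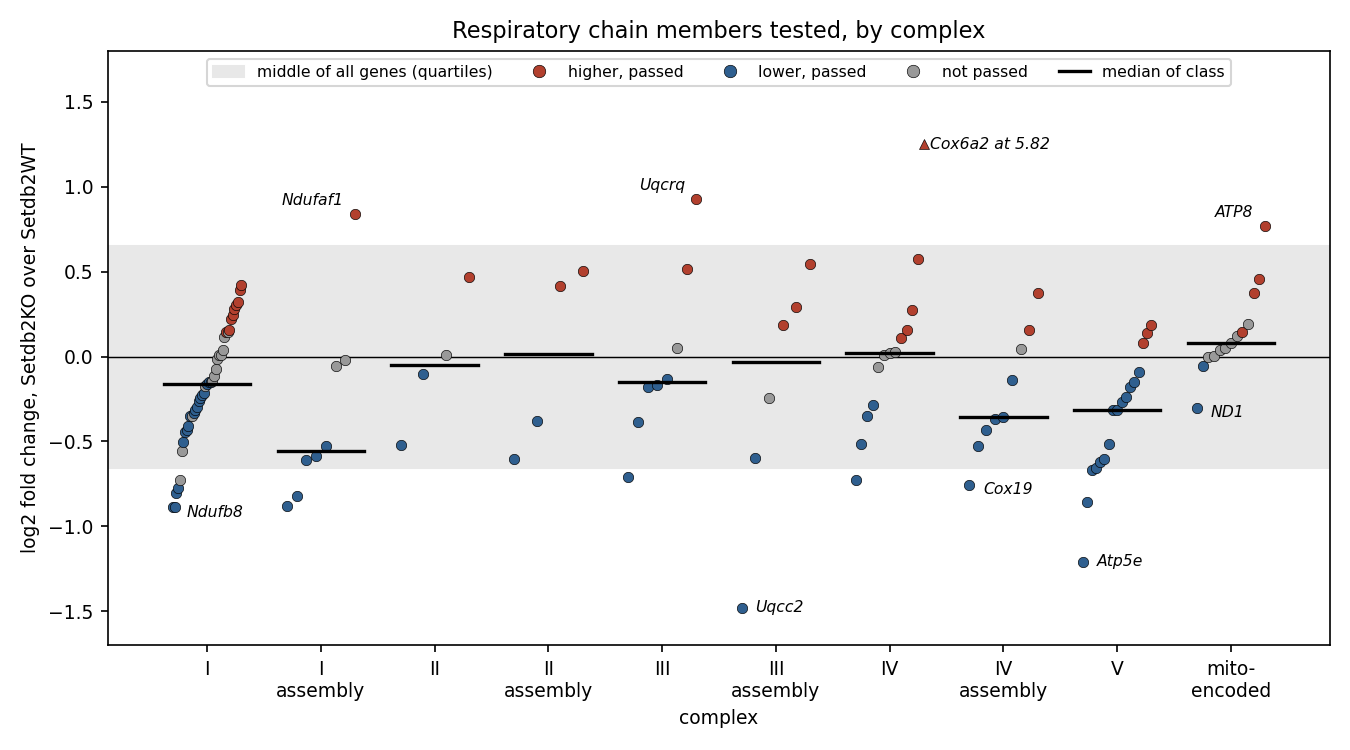
Log2 fold change (libraries labelled Setdb2KO over those labelled Setdb2WT) of each member tested, one point per gene, grouped by complex with assembly factors apart; colours give the edgeR call, black lines the class medians and the grey band the quartiles of all genes tested. Most members lie inside the grey band, complex V lies mostly below 0, and Cox6a2, drawn as a triangle at the edge, is at 5.82.

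The 3 members past 2-fold and the largest rises differed between labels by far more than the spread of their libraries. Cox6a2, the isoform of complex IV subunit 6a typical of heart and skeletal muscle, had 123, 150 and 123 reads under the Setdb2KO label, against 3, 1 and 2 reads under the Setdb2WT label. All 3 libraries labelled Setdb2KO were higher, and the ratio of summed reads, scaled by library size, was 59.9 (27.3 to 164 as its exact 95% interval for counting error alone). Uqcc2, an assembly factor needed for the synthesis and stability of cytochrome b in complex III, had 23.0, 27.6 and 23.1 CPM under the Setdb2KO label, against 69.6, 68.7 and 67.1 CPM under the Setdb2WT label. Atp5e, the epsilon subunit of the ATP synthase F1 head, had 20.6, 24.3 and 21.7 CPM under the Setdb2KO label, against 49.5, 49.9 and 54.7 CPM under the Setdb2WT label. For both genes the highest library labelled Setdb2KO stayed below the lowest labelled Setdb2WT, with log2 fold changes of -1.48 (SE 0.064, adjusted p = 3.22e-11) for Uqcc2 and -1.21 (SE 0.066, adjusted p = 3.86e-10) for Atp5e.

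Among well-read members, Uqcrq, a small accessory subunit of complex III, rose most, with 169.8, 190.2 and 175.4 CPM under the Setdb2KO label, against 91.9, 95.4 and 94.4 CPM under the Setdb2WT label (log2 fold change 0.93, SE 0.042, adjusted p = 5.88e-11). Ndufaf1, an assembly factor of the membrane arm of complex I, had 30.6, 31.1 and 31.3 CPM under the Setdb2KO label, against 18.2, 16.3 and 17.4 CPM under the Setdb2WT label (log2 fold change 0.84, SE 0.060, adjusted p = 8.19e-09). Neither gene's groups overlapped, as their choice required, and the plot of members with large changes shows each library.

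**Figure D2:**
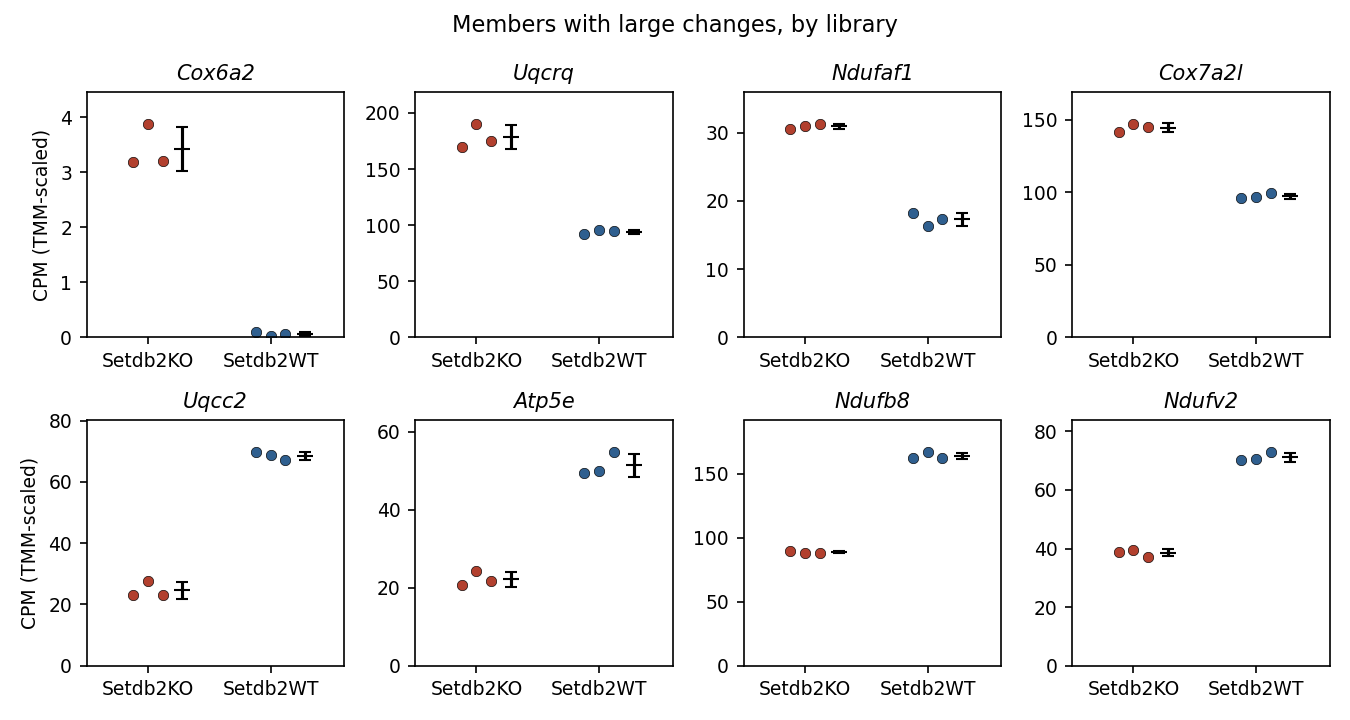
CPM (TMM-scaled) of 8 members in each library, with libraries labelled Setdb2KO on the left and Setdb2WT on the right of each panel; points are libraries and bars the mean ± SD of 3. All 8 were chosen among members without overlap, so the groups overlap in no panel. Cox6a2, Uqcrq, Ndufaf1 and Cox7a2l are higher and Uqcc2, Atp5e, Ndufb8 and Ndufv2 lower under the Setdb2KO label.

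Promoters of nuclear respiratory genes often carry motifs of NRF1 and of ETS factors such as GABP, and those of the members with the largest changes are shown to let these motifs be seen beside the values. RefSeq's promoter table (GRCm38.p6) held 94 of the nuclear members among 27025 genes, and the sequences are the 250 bases before the annotated start, 5′ to 3′ on the gene's own strand. Uqcc2 (chr17:27133892-27134141, minus strand) and Atp5e (chr2:174464102-174464351, minus strand) fell most, and Ndufaf1 (chr2:119662835-119663084, minus strand) and Cox7a2l (chr17:83514334-83514583, minus strand) rose most among the members with an entry and a mean level of at least 1 CPM. Capitals mark a match to NRF1 (GCGCA, any base, then GCGC) in Uqcc2 and to the ETS core (CCGGAAG, or CTTCCGG on the other strand) in Atp5e and Ndufaf1; Cox7a2l had no match to the motifs searched.
Uqcc2: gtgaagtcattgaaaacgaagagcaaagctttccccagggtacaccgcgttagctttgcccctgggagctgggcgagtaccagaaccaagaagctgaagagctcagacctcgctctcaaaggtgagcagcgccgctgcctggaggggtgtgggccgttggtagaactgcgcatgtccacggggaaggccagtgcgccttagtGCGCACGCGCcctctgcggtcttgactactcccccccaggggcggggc
Atp5e: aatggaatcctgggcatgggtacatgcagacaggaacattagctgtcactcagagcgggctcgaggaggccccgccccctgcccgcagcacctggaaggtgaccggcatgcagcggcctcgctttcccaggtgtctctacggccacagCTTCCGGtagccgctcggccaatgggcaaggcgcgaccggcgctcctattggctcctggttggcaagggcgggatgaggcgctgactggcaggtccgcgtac
Ndufaf1: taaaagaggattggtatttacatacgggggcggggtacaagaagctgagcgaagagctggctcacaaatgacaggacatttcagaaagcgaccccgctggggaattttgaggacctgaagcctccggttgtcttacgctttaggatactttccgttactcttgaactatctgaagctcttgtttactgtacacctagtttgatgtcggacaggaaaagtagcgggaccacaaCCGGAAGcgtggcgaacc
Cox7a2l: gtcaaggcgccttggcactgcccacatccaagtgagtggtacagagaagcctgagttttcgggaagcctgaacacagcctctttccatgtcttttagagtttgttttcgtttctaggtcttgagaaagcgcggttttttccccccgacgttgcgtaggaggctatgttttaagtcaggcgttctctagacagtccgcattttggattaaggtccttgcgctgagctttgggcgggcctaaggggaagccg

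The NRF1 motif, read on both strands, stood in 16.0% of the members' promoters and in 3.86% of all 27025. The ETS core stood in 20.2% of the members' promoters, against 7.05% of all. Split by call, the ETS core was in 8 of 22 promoters of higher members, 8 of 50 of lower members and 3 of 19 of members that did not pass, and the NRF1 motif in 4, 7 and 4 of them. The other motifs searched were rarer among the members: the E-box CACGTG was in 8.51% of the members' promoters and 6.05% of all, the YY1 motif AAGATGG in 1.06% and 4.53%, and the ERR motif TCAAGGTCA in 1.06% and 0.366%. Over all promoters the E-box and the YY1 motif were more common than the NRF1 motif. A match is a run of letters, not a bound site, and Uqcrq and Cox6a2 were not looked up beyond this table.

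Complex I was mixed, with 24 of its 49 nuclear members lower, 10 higher and 15 not passing (median log2 fold change -0.17). With total-count scaling the split was 16 lower and 16 higher. Over all genes tested 42.3% were lower and 41.5% higher, or 35.8% and 48.5% with total-count scaling. The counts for every complex and module are to be read against these shares. Its peripheral arm holds the N module, which oxidises NADH, and the Q module, which reduces ubiquinone; the membrane arm that pumps protons has a proximal and a distal part. In the distal membrane arm, 7 of 11 nuclear subunits were lower and the other 4 did not pass (5 lower and 3 higher with total-count scaling). The N module had 4 lower and 3 higher of 8, the Q module 2 lower and 3 higher of 8, and the proximal arm 4 lower and 3 higher of 9.

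In the distal arm Ndufb8, a subunit often used as a blot marker of assembled complex I, had 89.6, 88.0 and 88.1 CPM under the Setdb2KO label, against 161.9, 166.5 and 162.3 CPM under the Setdb2WT label. Its log2 fold change was -0.89 (SE 0.032, adjusted p = 5.27e-12), and the groups did not overlap, as its choice required. Ndufb4, another accessory subunit there, fell by 0.81 on the log2 scale, to 16.3 ± 1.4 CPM under the Setdb2KO label, against 28.5 ± 1.1 CPM under the Setdb2WT label (SD, n = 3 each). Ndufb5, Ndufb9, Ndufb3, Ndufb2 and Ndufb10 also fell, with log2 fold changes of -0.50 to -0.25. Ndufb1, Ndufb6, Ndufb7 and Ndufb11 did not pass.

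The iron-sulfur and flavin subunits of the N module went different ways. Ndufv2, which carries an iron-sulfur cluster beside the flavin site, had 38.9, 39.6 and 37.2 CPM under the Setdb2KO label, against 70.1, 70.6 and 72.8 CPM under the Setdb2WT label (log2 fold change -0.88, SE 0.043, adjusted p = 1.18e-10). Its partner Ndufv1, which binds NADH and the flavin, rose by 0.22 on the log2 scale to 259.9 ± 9.8 CPM under the Setdb2KO label, against 222.7 ± 4.2 CPM under the Setdb2WT label. Ndufs1, the large iron-sulfur subunit, rose by 0.14 to 137.1 ± 1.5 CPM under the Setdb2KO label, against 124.2 ± 2.9 CPM under the Setdb2WT label. The groups overlapped for none of these 3 core subunits.

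Of the core subunits of the Q module, Ndufs8, which holds iron-sulfur clusters on the way to ubiquinone, fell by 0.35 on the log2 scale to 95.03 ± 7.1 CPM under the Setdb2KO label, against 121.3 ± 4.3 CPM under the Setdb2WT label. Ndufs3 fell by 0.15, a call lost without replicate 1 labelled Setdb2KO (-0.11, adjusted p = 0.0767) and under total-count scaling (0.0025), and Ndufs7, which carries the last cluster before ubiquinone, did not pass (log2 fold change 0.11, adjusted p = 0.0894). Of the 7 nuclear core subunits of complex I, 3 were higher and 3 lower.

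Among the accessory subunits outside the distal arm, Ndufa5 rose by 0.39, Ndufs5 by 0.32 and Ndufa13 by 0.30 on the log2 scale. Ndufa2 and the acyl carrier protein Ndufab1 fell, with log2 fold changes of -0.43 and -0.33. Ndufa6, Ndufa7, Ndufa11, Ndufc1 and Ndufs6 did not pass. The rule also took 4 genes that are near copies of subunits: Ndufab1-ps fell to 1.97 ± 0.21 CPM under the Setdb2KO label, against 3.37 ± 0.67 CPM under the Setdb2WT label, while Ndufb4b, Ndufb4c and Ndufs6b, all under 2 CPM in every library, did not pass. Reads of such copies and of their parent genes can be confused.

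Of the 8 assembly factors of complex I that share its stem, 5 were lower, 1 was higher and 2 did not pass, with the same counts under total-count scaling. Ndufaf4 and Ndufaf3, which act together early in building the Q module, both fell: Ndufaf4 had 20.7, 18.3 and 23.5 CPM under the Setdb2KO label, against 38.1, 39.5 and 37.5 CPM under the Setdb2WT label (log2 fold change -0.88, adjusted p = 6.8e-08), and Ndufaf3 had 4.21 ± 0.52 CPM under the Setdb2KO label, against 7.44 ± 0.77 CPM under the Setdb2WT label. Ndufaf7 and Ndufaf5, which modify core subunits of the Q module, fell by 0.59 and 0.61 on the log2 scale, and Ndufaf8, the partner of Ndufaf5, fell by 0.53. Ndufaf1, described above, rose, and Ndufaf2 and Ndufaf6 did not pass. The exons of Ndufaf3 overlap those of Impdh2 on the opposite strand, a gene with a log2 fold change of -1.36 and many more reads (3352 to 3514 reads under the Setdb2KO label, against 7836 to 8165 reads under the Setdb2WT label). None of the 75-base windows of the Ndufaf3 transcript (0 of 1413) was found in another gene. The part of any shorter shared stretch in the value for Ndufaf3 was not tested.

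Complex II is succinate dehydrogenase, wholly encoded in the nucleus. Its catalytic flavoprotein Sdha had 248.1, 254.4 and 242.2 CPM under the Setdb2KO label, against 246.8, 247.0 and 246.4 CPM under the Setdb2WT label, and did not pass (log2 fold change 0.0089, adjusted p = 0.792). The iron-sulfur subunit Sdhb fell by 0.52 on the log2 scale, to 58.4, 66.0 and 55.2 CPM under the Setdb2KO label, against 85.1, 85.0 and 87.7 CPM under the Setdb2WT label (adjusted p = 6.63e-07). The membrane anchor Sdhd rose by 0.47, to 169.1, 182.6 and 167.1 CPM under the Setdb2KO label, against 120.7, 125.3 and 128.4 CPM under the Setdb2WT label (adjusted p = 6.36e-08). The groups overlapped for Sdha and not for Sdhb or Sdhd. The other anchor, Sdhc, had a log2 fold change of -0.10 (adjusted p = 0.0235), which was -0.065 (adjusted p = 0.152) without replicate 1 labelled Setdb2KO, 0.051 under total-count scaling and 0.026 with an offset for transcript length and GC content.

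Its assembly factors also divided. Sdhaf2, which helps to attach the flavin to Sdha, rose by 0.51 on the log2 scale to 122.8 ± 7.8 CPM under the Setdb2KO label, against 86.5 ± 1.8 CPM under the Setdb2WT label. Its exons overlap those of Cpsf7 on the opposite strand, which had a log2 fold change of 0.49. None of the 75-base windows of the Sdhaf2 transcript (0 of 2907) was found in another gene, and the part of any shorter shared stretch was not tested. Sdhaf1, which helps to mature Sdhb, fell by 0.60, although 68.7% of its transcript is also annotated to another gene. Sdhaf4 fell by 0.38, and without replicate 1 labelled Setdb2WT it had -0.33 (adjusted p = 0.0565). Sdhaf3 rose by 0.41 with overlapping groups, and its call was lost without replicate 1 or 3 labelled Setdb2KO or replicate 1 or 2 labelled Setdb2WT (0.24 to 0.46, adjusted p = 0.0596 to 0.19). Of all 8 members of complex II, 4 were lower, 3 higher and 1 did not pass, against 2 lower and 4 higher with total-count scaling.

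Complex III had 7 of 14 nuclear members lower, 5 higher and 2 not passing, against 4 lower and 6 higher with total-count scaling. The Rieske iron-sulfur protein Uqcrfs1 and the core proteins Uqcrc1 and Uqcrc2 fell, with log2 fold changes of -0.18, -0.38 and -0.17, but under total-count scaling Uqcrfs1 had -0.025 (adjusted p = 0.56) and Uqcrc2 -0.014 (adjusted p = 0.717). Uqcrc1 had 156.6, 158.5 and 157.3 CPM under the Setdb2KO label, against 199.97, 207.0 and 209.7 CPM under the Setdb2WT label. The groups did not overlap for these 3 genes, which were chosen among members without overlap.

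The small subunits of complex III diverged. Uqcr11 fell by 0.71 on the log2 scale, to 29.8, 34.998 and 30.9 CPM under the Setdb2KO label, against 53.3, 50.7 and 52.3 CPM under the Setdb2WT label (adjusted p = 5.1e-08). Uqcr10 rose by 0.52, to 96.0, 94.9 and 100.9 CPM under the Setdb2KO label, against 65.9, 66.9 and 71.0 CPM under the Setdb2WT label (adjusted p = 3.04e-08). With Uqcrq, these are 3 accessory subunits of the same complex that moved in both directions. All 3 were chosen among members whose groups did not overlap. Uqcrh fell by 0.13 (0.025 under total-count scaling), and Uqcrb did not pass.

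Assembly factors of complex III included Uqcc2, described above, and its partner Uqcc1, with which it binds newly made cytochrome b. The partners moved in opposite directions: Uqcc1 rose by 0.29 on the log2 scale to 48.1 ± 2.7 CPM under the Setdb2KO label, against 39.3 ± 2.1 CPM under the Setdb2WT label (adjusted p = 0.00022). Uqcc3, which acts later on cytochrome b, fell by 0.60, to 11.5, 14.1 and 11.9 CPM under the Setdb2KO label, against 19.0, 18.1 and 19.7 CPM under the Setdb2WT label. Uqcc5 rose by 0.55 and Uqcc4 by 0.19, and Uqcc4 had 0.14 (adjusted p = 0.0519) without replicate 1 labelled Setdb2WT. Uqcc6 did not pass.

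In complex IV, 13 of the 18 nuclear subunits and isoforms were tested, of which 4 were lower, 5 higher and 4 did not pass. With total-count scaling, 4 were lower and 9 higher. Cox7b and Cox7c, small subunits of the membrane part, fell: Cox7b had 59.4, 69.3 and 60.2 CPM under the Setdb2KO label, against 103.8, 99.2 and 109.8 CPM under the Setdb2WT label (log2 fold change -0.73, SE 0.057, adjusted p = 2.37e-08), and Cox7c had 85.3 ± 4.4 CPM under the Setdb2KO label, against 121.9 ± 1.4 CPM under the Setdb2WT label (log2 fold change -0.51). Ndufa4, named for complex I but now placed in complex IV, fell by 0.35, and Cox6c fell by 0.28. Cox6b1, which faces cytochrome c, rose by 0.28 to 129.7 ± 5.0 CPM under the Setdb2KO label, against 107.2 ± 3.8 CPM under the Setdb2WT label, and Cox4i1, the usual isoform of the regulatory subunit 4, rose by 0.16. Cox5a, Cox5b, Cox8a and Cox6a1 did not pass. Cox7a2 had a log2 fold change of 0.11 (adjusted p = 0.0449) with overlapping groups, and leaving out replicate 3 labelled Setdb2KO or any of the 3 libraries labelled Setdb2WT ended the call, at 0.063 to 0.11 (adjusted p = 0.073 to 0.232).

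Several complex IV subunits have tissue or condition isoforms, and their shares of the reads of each family, not corrected for length, were set side by side. Cox6a2 made up 1.47%, 1.70% and 1.42% of Cox6a reads under the Setdb2KO label, against 0.0375%, 0.0122% and 0.0253% under the Setdb2WT label. The summed shares were 396 of 25856 reads under the Setdb2KO label (exact 95% interval 1.39% to 1.69%) and 6 of 24091 reads under the Setdb2WT label (0.00914% to 0.0542%), so the ubiquitous Cox6a1 still gave at least 98.3% of the family's reads in each library. All libraries labelled Setdb2KO lay higher, and an exact two-sided permutation test gave p = 0.1, the smallest that 3 libraries against 3 allow. Cox6a2 passed the filter on low counts through the libraries labelled Setdb2KO alone, so its edgeR call depends on the group where it is high. Its adjusted p is therefore not given as support, and the log2 fold change of 5.82 (SE 0.34) only describes the reads above.

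Markers of the tissues where Cox6a2 is usually found had few reads. Of 4 muscle markers analysed, Ckm, Mb and Myh7 had 0 to 2 reads in every library and Tnnt2 was lower, with a summed level of 1.28 to 1.68 CPM under the Setdb2KO label, against 2.46 to 3.33 CPM under the Setdb2WT label. Of the 3 brown fat markers, all below the filter on low counts, Ucp1 had 9, 10 and 26 reads under the Setdb2KO label, against 1, 1 and 0 reads under the Setdb2WT label, and the list summed to 0.258 to 0.756 CPM under the Setdb2KO label, against 0.0284 to 0.0287 CPM under the Setdb2WT label. In the GRCm38 annotation an exon of Cox6a2 overlaps Itgad on the opposite strand, a gene not analysed here.

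The other tissue isoforms had few or no reads. Cox4i2, Cox6b2, Cox7a1, Cox7b2 and Ndufa4l2 were the 5 members below the filter on low counts, with at most 5 reads in any library. Cox7a2l, which shares its family with Cox7a2 and joins complexes III and IV into supercomplexes, rose by 0.57 on the log2 scale, to 141.4, 147.1 and 145.3 CPM under the Setdb2KO label, against 95.7, 96.5 and 99.4 CPM under the Setdb2WT label (SE 0.034, adjusted p = 1.07e-09). Its share of Cox7a reads was 64.0% ± 1.1 under the Setdb2KO label, against 56.3% ± 0.34 under the Setdb2WT label (SD, n = 3 each; exact permutation p = 0.1, two-sided, the smallest possible). The 3 libraries labelled Setdb2KO had the highest values of both measures.

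Assembly factors of complex IV leaned lower, with 6 of 9 lower, 2 higher and 1 not passing (4 lower and 3 higher with total-count scaling). Cox19, a small twin-cysteine protein of the copper route, had 17.1, 16.7 and 17.4 CPM under the Setdb2KO label, against 27.7, 30.1 and 28.5 CPM under the Setdb2WT label (log2 fold change -0.75, SE 0.060, adjusted p = 2.66e-08). Cox17, the copper chaperone of the same route, moved the other way, rising by 0.37 on the log2 scale to 39.5 ± 1.6 CPM under the Setdb2KO label, against 30.5 ± 2.5 CPM under the Setdb2WT label. Cox20, which stabilises the newly made COX2 protein, fell by 0.53, and Cox11, which delivers copper to COX1, fell by 0.36. Of the transcripts of Cox17, Cox20 and Cox11, 49.5%, 47.6% and 47.1% are also found in other genes. On the opposite strand, Cox11 overlaps Tom1l1 (log2 fold change -0.93) and Cox20 overlaps Hnrnpu (0.12). The part of shared bases in the values of Cox17, Cox20 and Cox11 was not tested. Cox18, which inserts COX2 into the membrane, fell by 0.36, and Cox15, of heme a synthesis, fell by 0.14 (0.016 under total-count scaling). Cox10, the other enzyme of heme a synthesis, rose by 0.16, a call that was lost without replicate 1 or replicate 3 labelled Setdb2WT (0.12 and 0.13, adjusted p = 0.0851 and 0.0709). Cox16 had a log2 fold change of -0.43 (adjusted p = 0.035), and its call was lost on leaving out replicate 2 or 3 labelled Setdb2KO or any library labelled Setdb2WT (-0.47 to -0.33, adjusted p = 0.0502 to 0.15), while 88.5% of its transcript is also annotated to a readthrough gene. Cox14 did not pass.

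The nuclear genes of the ATP synthase were mostly lower. Of its 17 nuclear members 14 were lower and 3 higher, where 42.3% and 41.5% of all genes tested were. The median log2 fold change was -0.32. With total-count scaling 9 were lower, 3 higher and 5 did not pass, at a median of -0.16, and against a limit of 1.2-fold 7 were lower and the other 10 did not pass. In the catalytic F1 head the alpha subunit Atp5a1 fell by 0.67 on the log2 scale, to 619.2, 639.0 and 603.0 CPM under the Setdb2KO label, against 991.3, 965.4 and 1004 CPM under the Setdb2WT label (SE 0.030, adjusted p = 5.37e-11). The beta subunit Atp5b, which pairs with alpha in the same ring, had 1638, 1728 and 1607 CPM under the Setdb2KO label, against 1569, 1570 and 1572 CPM under the Setdb2WT label (log2 fold change 0.078, adjusted p = 0.0275). The groups overlapped for neither subunit, but the call of Atp5b was lost without any of the 3 libraries labelled Setdb2WT (0.061 to 0.064, adjusted p = 0.085 to 0.0894).

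The gamma subunit Atp5c1, the rotating shaft, fell by 0.51 on the log2 scale to 167.2 ± 2.2 CPM under the Setdb2KO label, against 238.6 ± 2.8 CPM under the Setdb2WT label, and the delta subunit Atp5d fell by 0.18. Subunit c, which forms the proton-driven ring, is made from 3 nuclear genes whose mature proteins are alike. All 3 fell: Atp5g2 had 104.9, 111.0 and 105.0 CPM under the Setdb2KO label, against 191.7, 192.3 and 196.5 CPM under the Setdb2WT label (log2 fold change -0.86), Atp5g1 fell by 0.65 and Atp5g3 by 0.61. Atp5g2 gave 33.5% ± 0.49 of subunit c reads under the Setdb2KO label, against 37.3% ± 0.38 under the Setdb2WT label, and Atp5g3 gave 53.3% ± 0.57 under the Setdb2KO label, against 49.9% ± 0.51 under the Setdb2WT label (SD, n = 3 each). The share of Atp5g1 was 13.2% ± 0.21 under the Setdb2KO label, against 12.7% ± 0.41 under the Setdb2WT label. Exact two-sided permutation tests gave p = 0.1 for Atp5g2 and Atp5g3, the smallest possible, and 0.2 for Atp5g1. The annotated transcript of Atp5g2 also lies wholly within processed copies elsewhere, so its counts are uncertain.

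In the stalk and membrane part, Atp5j2 fell by 0.62 on the log2 scale, to 81.9, 84.3 and 88.4 CPM under the Setdb2KO label, against 129.6, 128.5 and 133.1 CPM under the Setdb2WT label. Atp5mpl, Atp5k, Atp5h, Atp5o (the oligomycin sensitivity protein at the top of the stalk), Atp5md and Atp5j also fell, with log2 fold changes of -0.32 to -0.089, and only Atp5j among them had overlapping groups. The call of Atp5j was lost without replicate 1 or 3 labelled Setdb2KO or replicate 3 labelled Setdb2WT (-0.086 to -0.069, adjusted p = 0.0692 to 0.172), and under total-count scaling Atp5j had 0.065 and Atp5md 0.0065. Atp5pb, the b subunit of the stalk, rose by 0.14 and Atp5l, the g subunit, by 0.19. Of the transcript of Atp5l, 76.0% is also found in other genes, and Atp5pb overlaps Wdr77 on the opposite strand, which had a log2 fold change of -1.24.

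**Figure D3:**
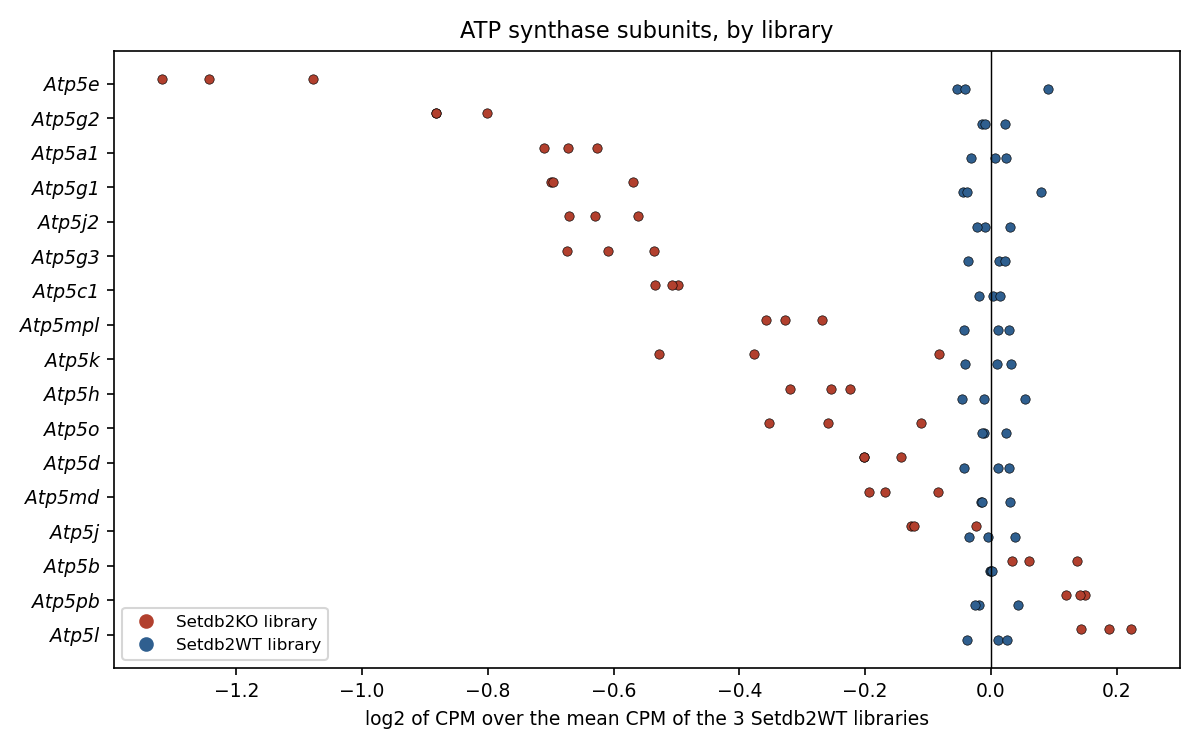
ATP synthase members ordered by log2 fold change, each library drawn as log2 of its CPM over the mean CPM of the 3 libraries labelled Setdb2WT; the Setdb2KO label is above the Setdb2WT label in each row. Atp5e lies lowest, 14 members have called falls, and Atp5b, Atp5pb and Atp5l lie to the right of 0.

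Summed over members, levels differed less than single genes did. The nuclear members of complex V summed to 4005 ± 129 CPM under the Setdb2KO label, against 4682 ± 48 CPM under the Setdb2WT label (SD, n = 3 each), a ratio of 0.855. The ratio was 0.945 for complex I, 1.07 for complex II, 0.974 for complex III and 0.982 for complex IV. For complex II the 3 libraries labelled Setdb2KO (706 to 742 CPM) all lay above those labelled Setdb2WT (665 to 678 CPM). For complex V they all lay below (3916 to 4153 CPM under the Setdb2KO label, against 4638 to 4732 CPM under the Setdb2WT label), as for complex I, while the libraries overlapped for complexes III and IV. These sums and ratios rest on the TMM factors, 1.05 to 1.06 for libraries labelled Setdb2KO and 0.946 to 0.950 for those labelled Setdb2WT. Without these factors the libraries labelled Setdb2KO all lay above the others for complexes I, III and IV. For complex V they still all lay below.

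The mitochondrial genome encodes 7 subunits of complex I, 1 of complex III, 3 of complex IV and 2 of complex V, transcribed as long precursors and cut apart. Their reads made up 2.41%, 2.14% and 2.49% of each library labelled Setdb2KO, against 2.11%, 2.15% and 2.14% of each labelled Setdb2WT. Replicate 2 labelled Setdb2KO lay within the Setdb2WT range and the other 2 above it. By edgeR, ATP8, ND2, COX3 and ND4 were higher, ND1 and COX1 lower, and ND3, ND4L, ND5, ND6, COX2, ATP6 and CYTB did not pass. The median log2 fold change of the 13 was 0.077. With total-count scaling 7 were higher and the other 6 did not pass, and against a limit of 1.2-fold all 13 did not pass. The groups did not overlap for ND1, COX1 and ND4 alone among the 13, where 84.6% of all genes tested had no overlap.

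Most of these calls depended on which libraries were kept, and replicate 2 labelled Setdb2KO stood apart for several of the genes. ND2 had 2681, 1520 and 3374 CPM in replicates 1 to 3 of the Setdb2KO label, against 1724, 1906 and 1897 CPM under the Setdb2WT label, so the second library lay below all others and the other 2 above all. ATP6 showed the same split, with 68.7, 25.1 and 50.7 CPM under the Setdb2KO label, against 37.9, 49.1 and 39.5 CPM under the Setdb2WT label, and so did ATP8 in part, with 8.20, 2.30 and 5.50 CPM under the Setdb2KO label, against 3.83, 2.13 and 3.42 CPM under the Setdb2WT label. ND1, encoded next to ND2, had 3494, 2881 and 3756 CPM under the Setdb2KO label, against 4134, 4170 and 4184 CPM under the Setdb2WT label (log2 fold change -0.30, adjusted p = 0.00079), and was lower in every library. Under total-count scaling ND1 had -0.15 (adjusted p = 0.0541). The median coefficient of variation over the 13 genes was 21.1% under the Setdb2KO label and 11.1% under the Setdb2WT label, against 4.97% and 2.57% for 96 nuclear members with a mean of at least 10 CPM.

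Without replicate 2 labelled Setdb2KO, 8 mitochondrial genes were higher: ND2, ND4, ND5, COX2, COX3, ATP6, ATP8 and CYTB. ND2 then had a log2 fold change of 0.72 (adjusted p = 9.23e-14) and ATP6 of 0.50 (adjusted p = 6.2e-06). Leaving out any other library left 1 or 2 genes higher, as ND2 (0.19 to 0.47, adjusted p = 0.104 to 0.227) and ATP8 (0.32 to 0.93, adjusted p = 0.0704 to 0.374) no longer passed. COX3 was lost without replicate 3 labelled Setdb2KO (0.19, adjusted p = 0.0632) and without replicates 2 and 3 labelled Setdb2WT (0.31 and 0.32, adjusted p = 0.096 and 0.0868). COX1, with 10456, 10255 and 10385 CPM under the Setdb2KO label, against 10816, 10810 and 10748 CPM under the Setdb2WT label, had a log2 fold change of -0.058 (adjusted p = 0.039) and was lost without replicate 1 or 3 labelled Setdb2KO (-0.062 and -0.059, adjusted p = 0.0653 and 0.0516). ND4, with a log2 fold change of 0.14 (adjusted p = 0.0013), kept its call in each of these fits. With an offset for transcript length and GC content, which takes these genes together with nuclear ones, 6 mitochondrial genes were lower and the other 7 did not pass. ND4 (-0.26), ND5 (-0.31), ND3 (-0.68) and CYTB (-0.16) became lower, and ND1 and COX1 kept their calls. ATP8 changed sign but did not pass (-0.096, adjusted p = 0.734).

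**Figure D4:**
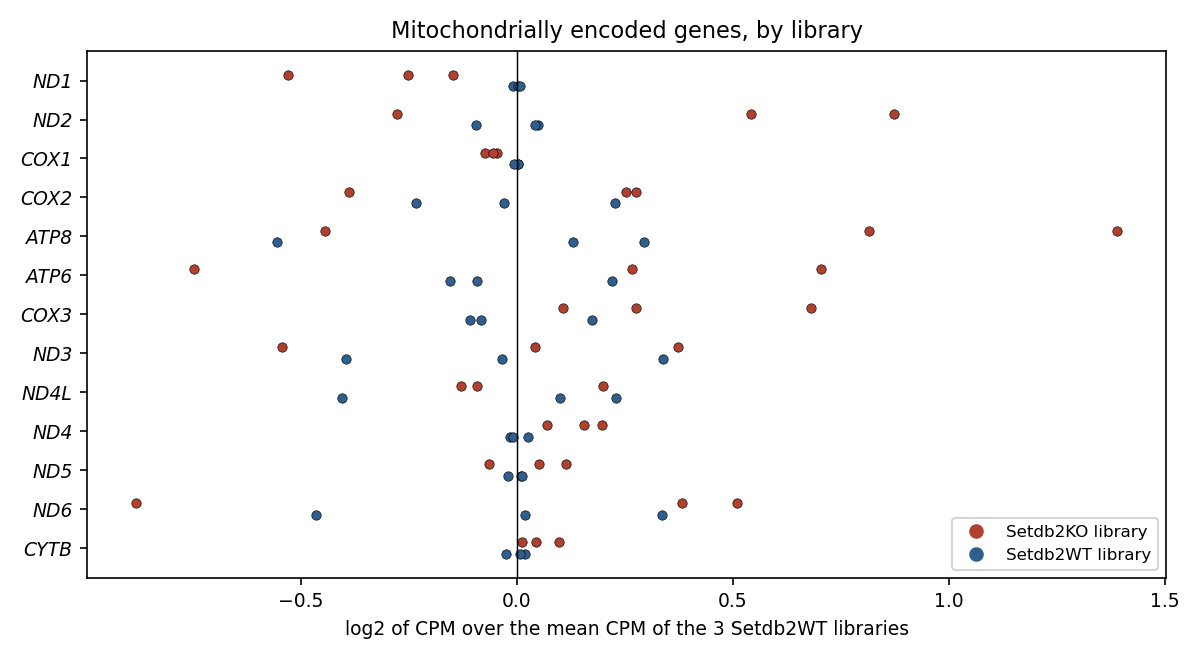
The 13 mitochondrially encoded genes in genome order, each library drawn as log2 of its CPM over the mean CPM of the 3 libraries labelled Setdb2WT; the Setdb2KO label is above the Setdb2WT label in each row. Libraries labelled Setdb2KO spread widely for ND2, ATP8, ATP6 and ND6, and lie wholly left of the others for ND1 and COX1 and right for ND4.

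Read per kilobase of gene, the mitochondrial genes differed far more among themselves than between labels. COX1 had 256977 to 261781 reads per kb under the Setdb2KO label, while COX3, cut from the same precursor strand and part of the same complex, had 909 to 1343 reads per kb. In each library COX1 exceeded COX3 by 192 to 345 times, and 6 genes (COX1, ND1, CYTB, ND2, ND5 and ND4) held 99.2% to 99.5% of the mitochondrial reads. The 5 genes ATP6, COX2, COX3, ND3 and ND4L had over 90% of their 75-base windows also in annotated nuclear pseudogenes (97.8% to 99.9%), and between 296 and 4633 reads per kb over all libraries. The 6 well-read genes had 0% to 61.5% of such windows and 23910 to 261781 reads per kb. ATP8 and ND6, at 368 to 1554 and 19.3 to 50.1 reads per kb, had 0% of windows in such copies, but ATP8 overlaps ATP6 and ND6 lies opposite ND5. How reads with several matches were counted is not given in the sources used here, and its part in these levels was not tested.

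**Figure D5:**
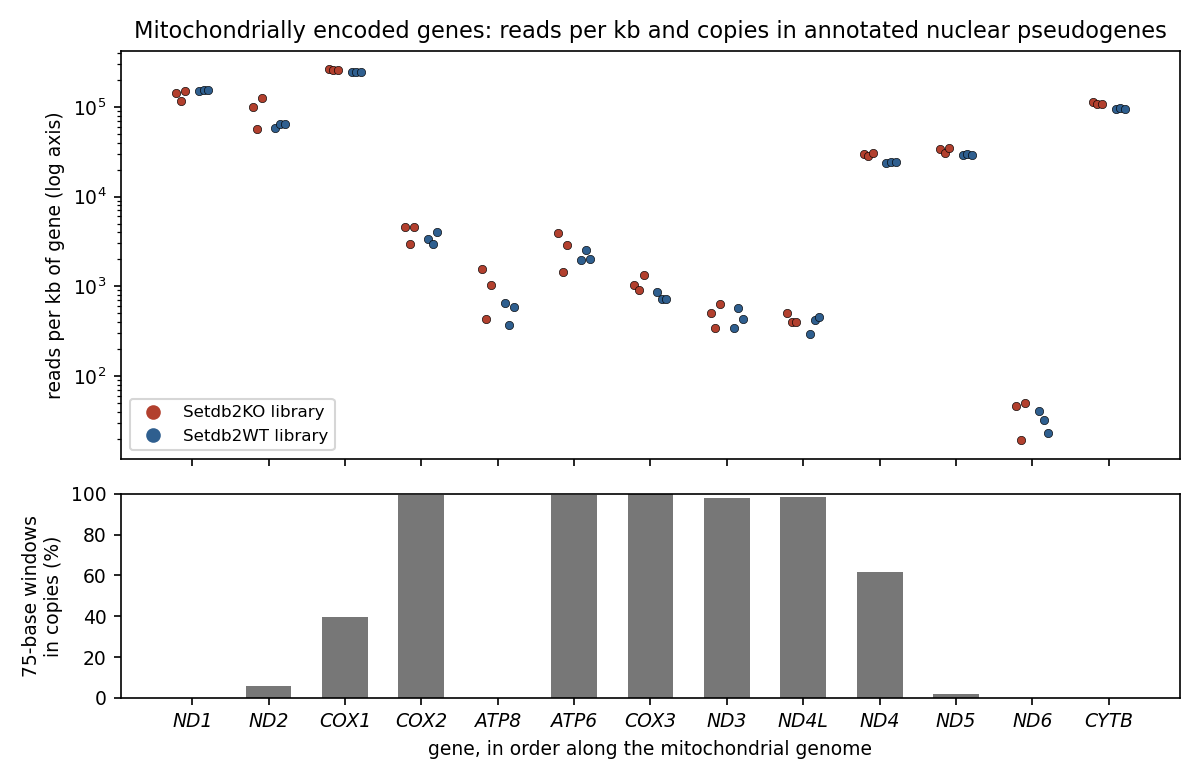
Upper panel, reads per kb of each mitochondrial gene in every library on a log axis, Setdb2KO label left of Setdb2WT label; lower panel, share of the gene's 75-base windows found in annotated nuclear pseudogenes. The 5 genes above 90% in the lower panel lie at or below 4633 reads per kb, as do ATP8 and ND6 at 0%.

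Nuclear members had copies and neighbours too. Of 110 nuclear members with an annotated transcript, 27 had over 10% of their 75-base windows in other genes and 4 over 50% (Atp5g2, Cox16, Atp5l and Sdhaf1), while Uqcc2, Atp5e, Uqcrq, Ndufaf1, Ndufv2, Cox6a2, Cox7b and Sdhd had 0%. Among all members, mitochondrial genes included, the exons of 52 overlapped another gene, and without a stated strand setting such reads cannot be told apart. Ndufs1 overlaps the translation factor Eef1b2 (log2 fold change -0.91), which moved opposite to it.

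Genes around the chain that do not carry its names were followed through related lists. Of 14 genes of electron carriers and ubiquinone synthesis 6 were lower and 6 higher. Pdss1, which makes the isoprenoid tail of ubiquinone, had 7.02 ± 0.97 CPM under the Setdb2KO label, against 21.6 ± 0.96 CPM under the Setdb2WT label (log2 fold change -1.62), and Coq2, which attaches that tail, had -1.26, while the ubiquinone-binding Coq10b and Coq10a rose by 1.06 and 0.80. Other entry points to ubiquinone were lower in 6 of 8 and higher in 1, led by proline dehydrogenase Prodh (-1.74) and choline dehydrogenase Chdh (-0.93), with Etfdh of fatty acid oxidation at 0.68.

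Of 13 further complex I assembly factors 5 were lower and 5 higher. Tmem126b, of the complex that builds the membrane arm together with Ndufaf1, had 24.3 ± 0.52 CPM under the Setdb2KO label, against 6.47 ± 0.40 CPM under the Setdb2WT label (log2 fold change 1.91), and Acad9, of that same assembly complex, had 35.5 ± 0.91 CPM under the Setdb2KO label, against 82.8 ± 0.55 CPM under the Setdb2WT label (-1.22). Tmem126a rose by 0.67 and Lyrm2 fell by 0.70. Among 21 other factors for complexes III, IV and V 9 were lower and 7 higher, with Coa3 at -1.12, Pet100 at -1.04, Taco1 at 0.53 and Sco1 at 0.52, the first and last of these acting on COX1 synthesis and on copper delivery to COX2.

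Genes that copy and transcribe mitochondrial DNA were higher in 10 of 18 and lower in 4 (13 and 3 with total-count scaling). The helicase Twnk had 92.0 ± 3.1 CPM under the Setdb2KO label, against 45.2 ± 2.1 CPM under the Setdb2WT label (log2 fold change 1.03), and the transcription factor Tfb2m rose by 0.86, while Tfb1m fell by 0.70 and the RNA helicase Supv3l1 by 0.55. Of 12 nuclear regulators tested 4 were lower and 5 higher: Ppargc1a, the coactivator of mitochondrial biogenesis, had 108, 97 and 119 reads under the Setdb2KO label, against 35, 17 and 19 reads under the Setdb2WT label (log2 fold change 2.04, adjusted p = 4.92e-06), and Hif1a rose by 0.64, whereas Esrra fell by 0.76 and Pprc1 by 0.55. Mitochondrial translation factors were lower in 6 of 14 and higher in 5, with elongation factor Tufm at -1.04, Tsfm at -0.70, Mtrf1l at 1.05 and Mtif2 at 0.72. The lists were short, and in each the share of genes that passed is to be read against the 83.8% of all genes. By direction these were 42.3% lower and 41.5% higher, or 35.8% and 48.5% with total-count scaling.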

How the data were processed

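Total RNA of 6 MPC5 samples in high glucose was sequenced, and the authors deposited raw counts of reads for every gene in each library. The submitters' processing notes name fastp, HISAT and HTSeq as tools and GRCm39 as the genome build; their versions, the annotation, the strand setting and the handling of reads with several matches were not given in the sources used here. Each column carries the genotype and replicate number of its sample.

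All genes were fitted with edgeR 4.0.16 (R 4.3.3) and tested by quasi-likelihood, after TMM scaling and filterByExpr at a minimum count of 10, with genotype alone in the model and adjustment after Benjamini-Hochberg over the 13509 genes tested at 0.05. CPM are scaled by the TMM factors, SDs are over 3 libraries, and fold changes use a prior count of 0.125. With 36461449 to 37129174 reads per library, genes with a few reads carry wide counting error, and exact (Clopper-Pearson) 95% intervals cover counting error only. Shares within isoform families were compared by exact permutation over the 6 libraries (scipy 1.17.1). Scripts were tested on simulated counts.

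Members and lists were chosen with earlier results of these data known. Named members are all 13 mitochondrial genes; in each class up to 4 with the largest and 4 with the smallest log2 fold change among those that passed, had a mean of at least 1 CPM and no overlap; all isoform families; members that did not pass; and up to 2 in each direction from each related list. Other members named beside their class were chosen after their values were seen. Copies and exon overlaps were sought in GENCODE transcripts of GRCm38 with 75-base windows, a length chosen here because the read length is not given. No pair of libraries agreed within sampling noise. Replicate numbers did not pair libraries (correlations of deviations for equal numbers 0.00086, -0.037 and -0.0056). Alternatives were other scalings, filters and tests (DESeq2 1.42.0, limma 3.58.1), a replicate block, a 1.2-fold limit, an offset for length and GC content, and leaving out each library. Some genes are not reported here.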

Additional observations from a re-analysis of the deposited data

How the results depend on the processing

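Total-count scaling gave 39 members lower; by complex it gave 16 higher in complex I, 2 lower in II, 4 lower in III, 12 higher in IV, 9 lower in V and, of the mitochondrial genes, 7 higher and 0 lower. A limit of 1.2-fold gave 11 members higher and 34 lower: 3 and 15 in complex I, 2 lower in II, 3 and 4 in III, 3 and 6 in IV, 0 and 7 in V, and 0 and 0 of the mitochondrial genes. Mitochondrial genes were the least stable class: limma-voom called 2 higher; DESeq2's size factors, upper-quartile scaling, the DESeq2 Wald test and the CPM filter called 1 lower each; the offset for transcript length and GC content called 0 higher and 6 lower; leaving out a library gave 1 to 8 higher and 1 to 2 lower. Of these counts of 0, only that of mitochondrial genes lower under total-count scaling became 1 at an unadjusted p under 0.05; the others stayed at 0. The DESeq2 Wald test called 3 mitochondrial genes higher and limma-voom called 2 lower. The cause of these shifts was not tested.

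Among members that passed in either fit, signs turned for 10 under total-count scaling (log2 fold change of COX1 0.096, Cox6a1 0.094, Ndufb11 0.14, Sdhc 0.051, Atp5j 0.065, Atp5md 0.0065, Cox15 0.016, Ndufc2 0.0031, Ndufs3 0.0025 and Uqcrh 0.025) and for 8 with the length and GC offset (ATP8 -0.096, CYTB -0.16, ND3 -0.68, ND4 -0.26, ND5 -0.31, Ndufb11 0.10, Sdhc 0.026 and Atp5j 0.044). Another 5 and 9 members, which passed in neither fit, also changed sign under these settings. For results that answer a comparison, counts of calls were held to a limit of 1.5 times and shares of reads to a limit set by their SD. They stayed within these limits in 267 alternatives and moved further in 37.

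With the replicate number as a block, 5529 genes were higher and 5661 lower, and 1 mitochondrial gene was lower (COX1, Cox16 and Atp5j no longer passed, while Ndufc1 passed). The libraries share only a number, so this fit is no paired comparison. It did not change the call of any other member. Depth limits what can be said of Cox4i2, Cox6b2, Cox7a1, Cox7b2, Ndufa4l2 and ND6.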
